A study of Homo sapiens with 94 samples.

Results

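Fatty acid synthesis and desaturation were followed through 10 genes, FASN, SCD, ACACA, ACLY, ACSS2, ELOVL6, FADS1, FADS2, SREBF1 and ACSL3, in tumors of the NCI-H226 mesothelioma cell line treated with the TEAD inhibitor K-975. The members were the rows of the expression table that carry these symbols, 10 of 20239 genes, and all 10 passed the filter on low values, which kept 13036 genes. NCI-H226 is a human mesothelioma line in long use that carries a deletion of NF2, an upstream regulator of the Hippo pathway, and the model therefore stands for 1 cell line. K-975 is a covalent inhibitor that enters the lipid pocket of the TEAD transcription factors and blocks their palmitoylation.

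RNA-seq of 94 tumors, grown under the skin of SCID mice to about 300 mm3, covered 3 studies sampled at 1 h, 3-6 h and 24 h after a single dose. The labels give the time only for untreated tumors, and vehicle and dosed tumors took it from the study code they share with them. Each study held tumors given K-975 at 30, 100 or 200 mg/kg, tumors given vehicle, and untreated tumors. All tumors shared the cell line and the host strain, and SCID mice lack functional T and B cells but keep other blood and stromal cells. The dosing volume was 20 mL/kg for vehicle and for the highest dose but 10 mL/kg for the 2 lower doses. At 1 h and 24 h each treatment was 1 cage group, so that an effect of cage and one of treatment cannot be told apart. In the 3-6 h study, 2 cage groups of 5 tumors made up vehicle and every dose, and the labels do not tie a cage group to 3 h or to 6 h. The mice were young adult females, per the study's methods.

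Levels are FPKM, fragments scaled to transcript length and to the total of the library, after capture of transcripts with probes. Of the libraries, 91 held between 11344 and 11665 genes at an FPKM of at least 1. The other 3 were shallow, with 702 genes (30 mg/kg, 24 h, replicate 1), 7196 genes (100 mg/kg, 24 h, replicate 5) and 8531 genes (200 mg/kg, 1 h, replicate 1), and they were left out of the main tests. Results with all 94 libraries are given beside the calls at 24 h. Each of the mesothelial markers MSLN, WT1, CALB2, KRT5, KRT8, KRT18, KRT19, PDPN and VIM was at an FPKM of at least 1 in 91 of 91 libraries, while UPK3B reached this level in 67 and was at 0 in 3. Fat cells express the same lipogenic genes, and their markers LEP, FABP4 and RETN were at 0 in 91 of 91 libraries and ADIPOQ in 90. CIDEC was at 0 in 89, PLIN1 in 34 and PLIN4 in 9, and these 3 stayed below an FPKM of 1 in all, whereas CFD had a median of 8.99 FPKM. Fat cells of the host would be mouse cells, and how mouse reads were treated is not given, so these values do not show their absence.

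Cells build fatty acids in the cytosol from acetyl-CoA. ACLY makes acetyl-CoA from citrate and ACSS2 makes it from acetate, ACACA carboxylates it to malonyl-CoA, and FASN joins these units into palmitate. ELOVL6 lengthens palmitate, SCD introduces the double bond of oleate, and FADS2 and FADS1 desaturate polyunsaturated fatty acids. ACSL3 activates long-chain fatty acids with coenzyme A, and SREBF1 encodes SREBP-1, a membrane-bound transcription factor that drives many of these genes once it has been cleaved. Palmitate is also the lipid that is attached to TEAD proteins.

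The desaturases SCD and FADS1 were the most abundant members. Over the 91 libraries, the median level was 1375 FPKM for SCD, which ranked 17 among all 20239 genes, and 605 FPKM for FADS1. SREBF1, FADS2 and FASN followed with medians of 253, 216 and 186 FPKM. ACSL3, ACLY and ACACA had medians of 59.8, 57.7 and 57.3 FPKM, and their ranges over the tumors overlapped. ACSS2 was lower (22.2 FPKM) and ELOVL6 lowest (5.11 FPKM). The spread between tumors was widest for the lowest genes, with a coefficient of variation over the 91 libraries of 56.0% for ELOVL6 and 28.6% for ACSS2 against 12.0% for ACLY and 11.9% for FADS1. FADS1 and FADS2 lie on opposite strands of chromosome 11 and share 29694 bases of their loci. Whether reads were counted by strand is not stated, so the split of reads between them is uncertain.

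The question of the dose comparisons was which genes change after TEAD inhibition, how soon, and at which dose. At 24 h FASN and ACLY were lower after 200 mg/kg than after vehicle, with changes of -44.5% and -30.2%, and FADS2 was lower at the edge of the threshold, with a change of -20.4%. The other 7 members did not pass the test at this dose. Of the 10 members, 3 were called lower and 0 higher at an adjusted p (limma, Benjamini-Hochberg) under 0.05. Among all genes tested, 966 were called, which is 7.41%, and 3.61% were called lower. The median log2 change of the members was -0.22 and that of all genes 0.04. All 3 doses of a study share its vehicle tumors, so their results are not independent of each other.

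FASN, the synthase itself, lies on chromosome 17 (GRCh38, chr17:82078333-82098332, minus strand). In the 4 vehicle tumors at 24 h it was measured at 194, 216, 221 and 186 FPKM. In the 5 tumors given 200 mg/kg it was at 133, 125, 123, 118 and 75.0 FPKM. All treated tumors were below all vehicle tumors, and the tumor at 75.0 FPKM stood below the other 4. The group means were 204 ± 17.0 (SD, n = 4) and 115 ± 23.0 FPKM (SD, n = 5). The log2 change was -0.85 (SE 0.12, 95% interval -1.08 to -0.61, adjusted p = 8.56e-07). Without any 1 of these 9 tumors it stayed between -0.91 and -0.70. The untreated tumors of this study, at 178, 211, 184, 146 and 208 FPKM, also lay above all tumors given 200 mg/kg, and with them as the control the change was -0.70 (adjusted p = 1.18e-05).

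ACLY, which supplies acetyl-CoA, lies on the same chromosome (GRCh38, chr17:41866908-41919022, minus strand). It was at 61.3, 63.9, 62.2 and 55.7 FPKM in the vehicle tumors and at 40.4, 44.6, 40.9, 45.2 and 39.5 FPKM after 200 mg/kg. The groups did not overlap, and the spread within each was small beside the distance between them. The means were 60.8 ± 3.53 (SD, n = 4) and 42.1 ± 2.59 FPKM (SD, n = 5), a log2 change of -0.52 (SE 0.08, adjusted p = 5.62e-06). The change stayed between -0.56 and -0.50 without any 1 tumor.

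FADS2, the delta-6 desaturase, was at 216, 217, 213 and 213 FPKM in the vehicle tumors, with an SD of 2.01 FPKM. After 200 mg/kg it was at 207, 159, 168, 172 and 152 FPKM. All treated tumors were below all vehicle tumors, but 1 of them came close. The log2 change was -0.33 (SE 0.11, adjusted p = 0.0497). The call was lost in 8 of the 9 fits that left out 1 tumor (vehicle replicates 1 to 4 and 200 mg/kg replicates 2 to 5), with adjusted p between 0.0727 and 0.130, and kept only without 200 mg/kg replicate 1, at 0.0352. The untreated tumors, at 207, 226, 186, 162 and 197 FPKM, overlapped the treated ones. Against them the change was -0.19 (adjusted p = 0.281). Of all genes tested, 3.22% had all tumors given 200 mg/kg below all vehicle tumors at 24 h, as FASN, ACLY and FADS2 had.

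**Figure D1:**
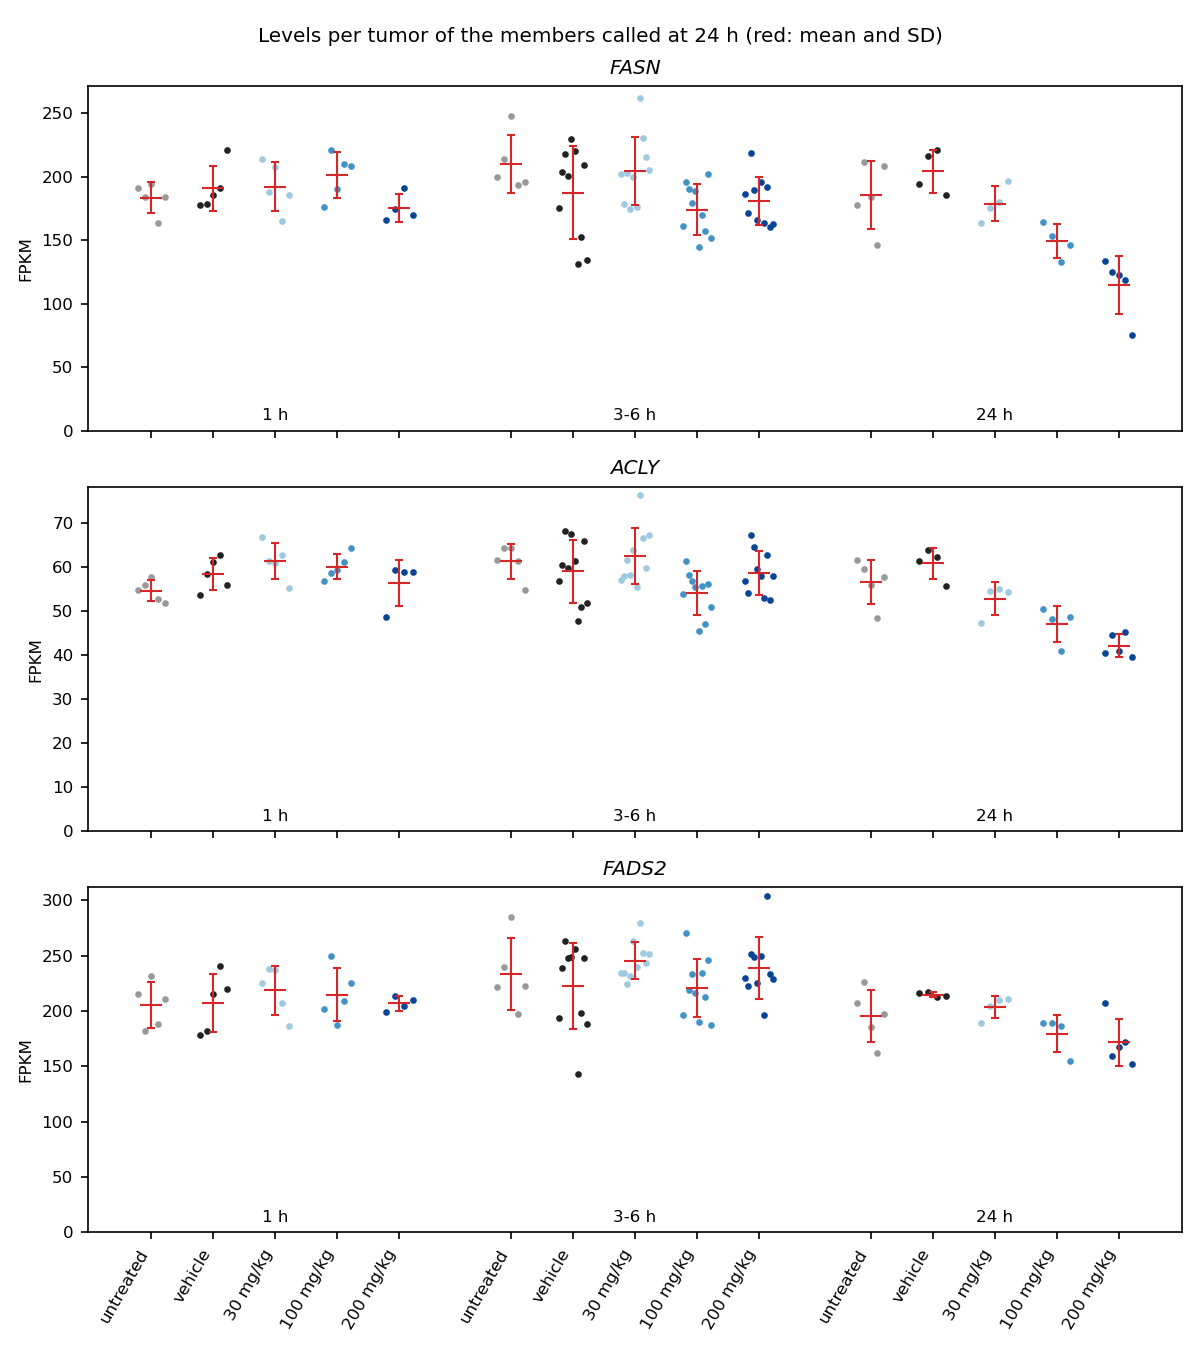
Levels in FPKM (y axis, from 0) of FASN, ACLY and FADS2 in each tumor of the 91 libraries, by treatment and study (x axis). Points are tumors, the red bars are the group mean and SD, and the 2 cage groups of a dose at 3-6 h are drawn together. At 24 h all tumors given 200 mg/kg lie below all vehicle tumors in the 3 panels, and at 1 h and 3-6 h the groups overlap.

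The sequences before the transcription start are shown for ACLY and FADS2, the called members with an entry in the RefSeq promoter table (GRCh38.p14). FASN has no entry. The members had 14 windows of 250 bases in all, from 9 genes, and each was searched on both strands for 5 short motifs. The E-box was searched as CACGTG. The box bound by NF-Y was searched as CCAAT. The GC box, to which Sp1 binds, was searched as GGGCGG. The site of TEAD proteins was searched as GGAATG. A form of the sterol regulatory element, to which SREBP binds, was searched as TCACNCCAC. Capitals mark the matches on either strand. The ACLY window is chr17:41919023-41919272 (minus strand), and the FADS2 window is chr11:61815953-61816202 (plus strand).
ACLY: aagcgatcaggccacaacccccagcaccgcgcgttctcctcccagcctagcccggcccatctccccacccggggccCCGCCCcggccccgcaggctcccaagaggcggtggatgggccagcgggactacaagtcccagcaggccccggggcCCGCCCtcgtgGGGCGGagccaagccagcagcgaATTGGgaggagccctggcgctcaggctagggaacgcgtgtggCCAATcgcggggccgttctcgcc
FADS2: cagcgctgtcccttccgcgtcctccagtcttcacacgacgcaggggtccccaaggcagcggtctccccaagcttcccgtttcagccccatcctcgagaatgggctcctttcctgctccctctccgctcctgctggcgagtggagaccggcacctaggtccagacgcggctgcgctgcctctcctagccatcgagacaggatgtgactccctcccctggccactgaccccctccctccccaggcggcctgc
The ACLY window held 2 matches to CCAAT and 3 to GGGCGG, and the FADS2 window held none of the 5 motifs. A later FADS2 start in the same table had a window with 1 match to GGGCGG and 1 to GGAATG. The motif CCAAT was in 7 of the 14 member windows and in 32.0% of all 35116 windows, and GGGCGG was in 12 of them and in 42.6% of all. GGAATG was in 2 member windows, 1 of FADS2 and 1 of ACSL3, and in 11.9% of all. TCACNCCAC and CACGTG were in 0 member windows, and in 0.883% and 6.34% of all. Some windows of 1 gene overlap, and a match is only a match of letters.

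The remaining members were not called at any dose at 24 h in the main fit. ELOVL6, the elongase, had the largest change among them at 200 mg/kg. However, its vehicle tumors were at 7.87, 21.4, 7.05 and 4.25 FPKM and its tumors given 200 mg/kg at 4.11, 5.00, 5.01, 4.39 and 6.97 FPKM. The vehicle tumor at 21.4 FPKM stood apart, and the groups overlapped. The log2 change was -0.67 (SE 0.41, adjusted p = 0.339), and without that vehicle tumor (replicate 2) it was -0.26.

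SCD, the stearoyl-CoA desaturase, was at 1100, 1120, 1047 and 1562 FPKM after vehicle and at 1288, 735, 939, 1187 and 834 FPKM after 200 mg/kg. The groups overlapped, and 3 of the 5 treated tumors were below all vehicle tumors. The log2 change was -0.29 (95% interval -0.62 to 0.04, adjusted p = 0.310).

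SREBF1 was the member with the highest positive value. It was at 225, 243, 207 and 219 FPKM after vehicle and at 310, 221, 250, 272 and 288 FPKM after 200 mg/kg, so that 4 of the 5 treated tumors were above all vehicle tumors. The log2 change of 0.25 (95% interval -0.00351 to 0.51) did not pass (adjusted p = 0.237). These are levels of its RNA, and cleavage of the protein was not measured.

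The acetyl-CoA carboxylase ACACA had a log2 change of -0.06 (95% interval -0.30 to 0.17), FADS1 of -0.14 (-0.37 to 0.08), ACSL3 of -0.04 (-0.39 to 0.31) and ACSS2 of 0.13 (-0.36 to 0.62). These intervals end short of the value of FASN, and those of ACSS2 and ACSL3 are the widest of the 4.

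**Figure D2:**
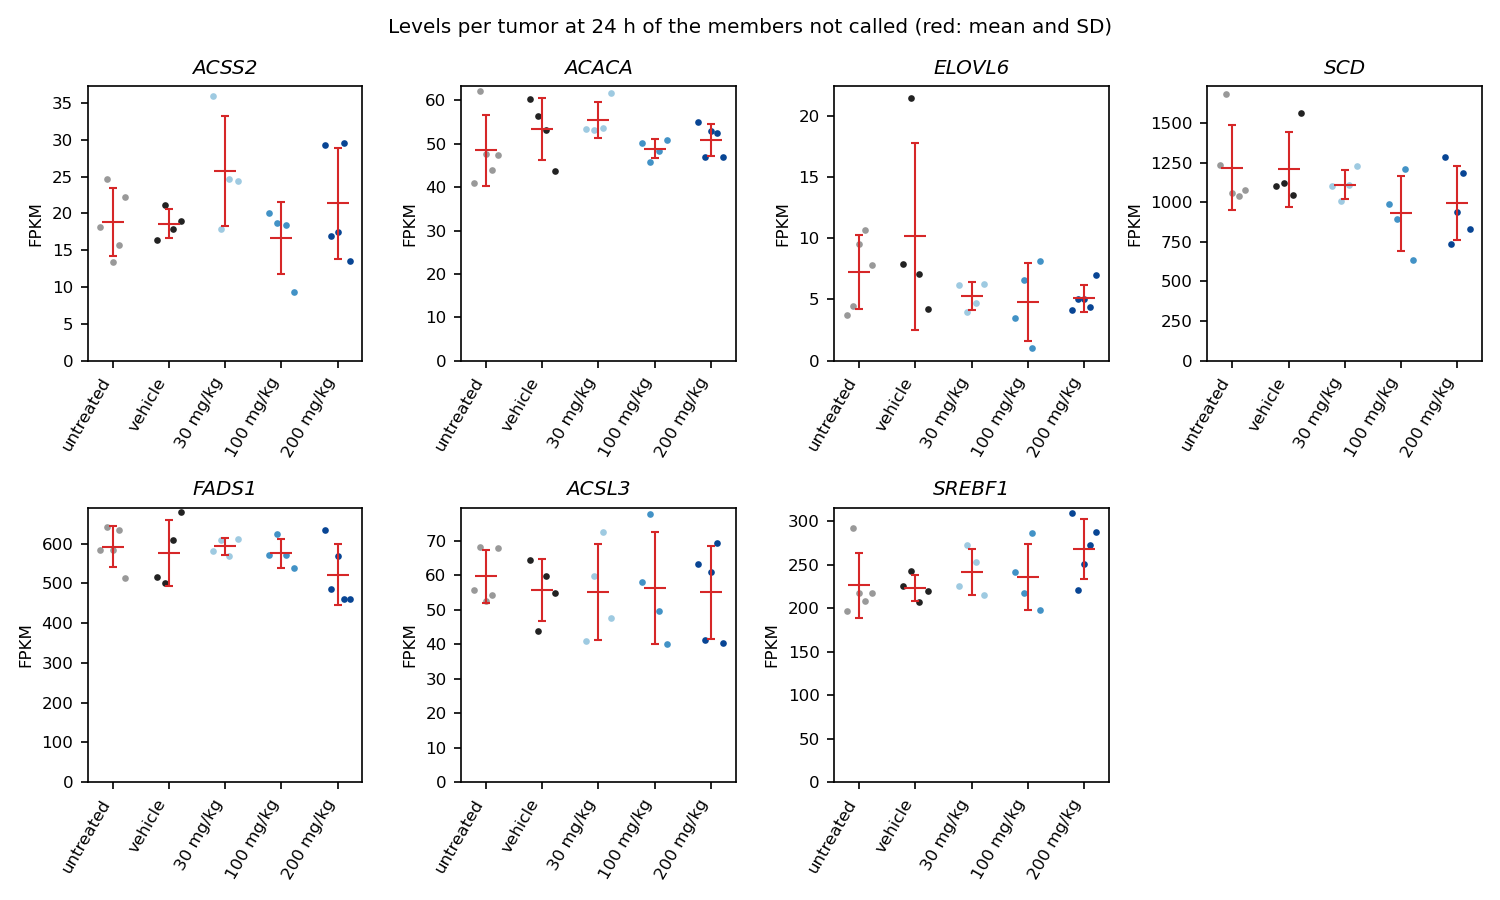
Levels in FPKM (y axes, from 0) at 24 h of the 7 members that did not pass the test at 200 mg/kg, by treatment (x axis). Points are tumors of the 91 libraries, and red bars are the mean and SD. The tumors given 200 mg/kg overlap the vehicle tumors in each panel.

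The lower doses at 24 h placed FASN and ACLY between vehicle and the highest dose. After 100 mg/kg FASN was at 165, 154, 133 and 146 FPKM and ACLY at 50.3, 48.2, 41.0 and 48.5 FPKM, in each gene below all 4 vehicle tumors. FASN changed by -26.8% (log2 change -0.45, SE 0.12, adjusted p = 0.0481), and ACLY by -22.4% (log2 change -0.37, SE 0.08, adjusted p = 0.0116). These 2 of the 10 members were called, against 1.12% of all genes. FADS2, at 189, 189, 186 and 154 FPKM, was also below all vehicle tumors, but its log2 change of -0.26 did not pass (adjusted p = 0.271). The share of all genes with no overlap at 100 mg/kg is not given here. The FASN call was lost without any 1 of 6 tumors (vehicle replicates 1, 2 and 3 and 100 mg/kg replicates 2, 3 and 4), at adjusted p between 0.0614 and 0.234. The ACLY call was lost without vehicle replicate 2, at 0.0520, and without 100 mg/kg replicate 3, at 0.121. With all 94 libraries neither passed (adjusted p = 0.442 for FASN and 0.722 for ACLY). In the main fit at 100 mg/kg, ELOVL6 had a log2 change of -0.94 (95% interval -1.80 to -0.09, adjusted p = 0.287). The vehicle tumor with the highest ELOVL6 enters this value as well. SCD had -0.39 (95% interval -0.74 to -0.04, adjusted p = 0.278). Of the 10 members, 2 had a log2 change above 0 at this dose.

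After 30 mg/kg FASN was at 163, 176, 180 and 197 FPKM and ACLY at 47.2, 54.4, 55.0 and 54.3 FPKM. All 4 tumors were below all vehicle tumors for ACLY and for FADS2, and 3 of 4 for FASN. The share of all genes that separate in this way at 30 mg/kg is not given here, so nothing is read from it. The log2 changes of -0.19 for FASN (adjusted p = 0.625), -0.20 for ACLY (adjusted p = 0.395) and -0.08 for FADS2 (adjusted p = 0.862) did not pass. In all, 0 members were called against 0.0384% of all genes. With all 94 libraries, which adds the tumor with 702 genes, 3 members were called (ACLY, FADS2 and ACSL3), but so were 22.7% of all genes.

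Across vehicle and the 3 doses at 24 h, the fitted slope per 100 mg/kg was -0.41 on the log2 scale for FASN (SE 0.05, adjusted p = 8.38e-08), -0.24 for ACLY (SE 0.04, adjusted p = 5.30e-06) and -0.17 for FADS2 (SE 0.05, adjusted p = 0.0318). These 3 of 10 members were called, against 5.61% of all genes. With all 94 libraries none of these slopes passed in limma. FASN then had a slope of -0.46 (adjusted p = 0.0907), and the slopes of ACLY (0.00392, adjusted p = 0.992) and FADS2 (0.14, adjusted p = 0.764) changed sign. The slope of FADS2 no longer passed without any 1 of vehicle replicates 1, 2 and 3, 200 mg/kg replicates 2 to 5 or 30 mg/kg replicate 5, at adjusted p between 0.0503 and 0.108.

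Other values also differed from vehicle at 24 h beside these genes. Genes that reached an FPKM of 1 numbered 11356 to 11422 after vehicle, 11448 to 11571 after 30 mg/kg, 11489 to 11561 after 100 mg/kg and 11424 to 11613 after 200 mg/kg. Vehicle overlapped with no dose in this number, so a fit that holds it as a covariate (depth) cannot fully tell it apart from treatment. With this number as a covariate, the log2 change at 200 mg/kg was -0.73 for FASN (adjusted p = 0.00120) and -0.35 for ACLY (adjusted p = 0.0318), while at 100 mg/kg neither passed (adjusted p = 0.393 and 0.369). The summed level of the 10 mesothelial markers was 3645 to 3770 FPKM after vehicle and 4068 to 4843 FPKM after 200 mg/kg, and that of the 8 adipocyte markers, nearly all of it CFD, was 4.80 to 6.65 and 9.49 to 12.7 FPKM. Neither sum rose steadily with dose. At 30, 100 and 200 mg/kg the median mesothelial sum was 4045, 4441 and 4251 FPKM, and the median adipocyte sum was 8.52, 10.4 and 10.1 FPKM. In the untreated tumors the mesothelial sum was 3350 to 4424 FPKM and the adipocyte sum 8.50 to 14.9 FPKM, and both overlapped the treated tumors. A few abundant genes carry the mesothelial sum, since 4 of its 10 markers had a log2 change above 0 at 200 mg/kg and the median was -0.02. Of these 10 markers, 3 were called higher and 0 lower at 200 mg/kg, against 496 of 13036 genes called higher. With depth as a covariate, 0 of the 10 were called. The summed leukocyte, endothelium and fibroblast markers overlapped between these groups. CD68 (median 139 FPKM) carries most of the leukocyte sum, KDR (63.9 FPKM) the endothelium sum, and COL1A1 and COL3A1 (560 and 267 FPKM) the fibroblast sum. AIF1 and DPT were at 0 in 91 libraries. Host cells are mouse cells, and how mouse reads were treated is not given, so these sums do not measure host tissue. The part of the marker levels in the changes of FASN and ACLY was not tested, and in bulk tumors fewer cells of a type and less RNA per cell cannot be told apart.

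In fits of all groups together, the calls rested on leaving out the shallow libraries. With all 94 libraries in 1 fit, which raises the shared estimate of the spread, none of the 10 members passed at 200 mg/kg at 24 h in limma, and the adjusted p of FASN was 0.506 and that of ACLY 1. Neither group of this comparison holds a shallow library. In a fit of these 9 tumors alone, FASN (adjusted p = 0.0242) and ACLY (adjusted p = 0.0200) passed and FADS2 (adjusted p = 0.0741) did not.

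At 1 h no member was called at any dose. FASN was at 177, 179, 186, 191 and 221 FPKM after vehicle and at 166, 175, 191 and 170 FPKM after 200 mg/kg, and the groups overlapped. At 200 mg/kg the log2 changes of the 10 members lay between -0.32 and 0.00570, and 0 members had an unadjusted p under 0.05. Among all genes, 0%, 0.00767% and 0% were called at 30, 100 and 200 mg/kg in limma, and 435 genes had an unadjusted p under 0.05 at 200 mg/kg.

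At 3-6 h, where each group had 10 tumors, again no member was called, and 0.0153%, 0.43% and 0.069% of all genes were called at 30, 100 and 200 mg/kg. FASN ranged from 131 to 230 FPKM after vehicle (median 202) and from 160 to 219 FPKM after 200 mg/kg (median 179). ACLY ranged from 47.6 to 68.0 FPKM after vehicle (median 60.1) and from 52.5 to 67.1 FPKM after 200 mg/kg (median 57.9). The treated ranges fell within those of vehicle. Among the vehicle tumors, the mean of FASN was 205 ± 20.6 FPKM in cage group 2 and 169 ± 42.1 FPKM in cage group 3 (SD, n = 5 each). The difference between these cage groups was not tested. Set against vehicle 1 at a time, none of the 6 cage groups of a dose had a called member. The lowest adjusted p of ACLY among them was 0.0990, at 100 mg/kg in cage group 7, with a log2 change of -0.20.

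The effect of 200 mg/kg was then compared between studies. For FASN, the log2 change at 24 h was lower than that at 1 h by 0.73 (difference -0.73, SE 0.17, adjusted p = 0.0162) and differed from that at 3-6 h by -0.82 (SE 0.14, adjusted p = 0.000500). For ACLY the differences were -0.47 (SE 0.11, adjusted p = 0.0236) and -0.52 (SE 0.10, adjusted p = 0.00123). These 2 of 10 members were called in both, against 0.583% of all genes for 24 h minus 1 h and 1.72% for 24 h minus 3-6 h. Both differences use the same 24 h tumors. The calls against 1 h did not hold in a fit of only the groups compared (adjusted p = 0.0934 for FASN and 0.0975 for ACLY). Those against 3-6 h did not hold with the untreated tumors as the control (0.0736 and 0.0581). None of these 4 differences passed in limma with all 94 libraries, where the lowest adjusted p was 0.825. Time and study cannot be told apart.

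**Figure D3:**
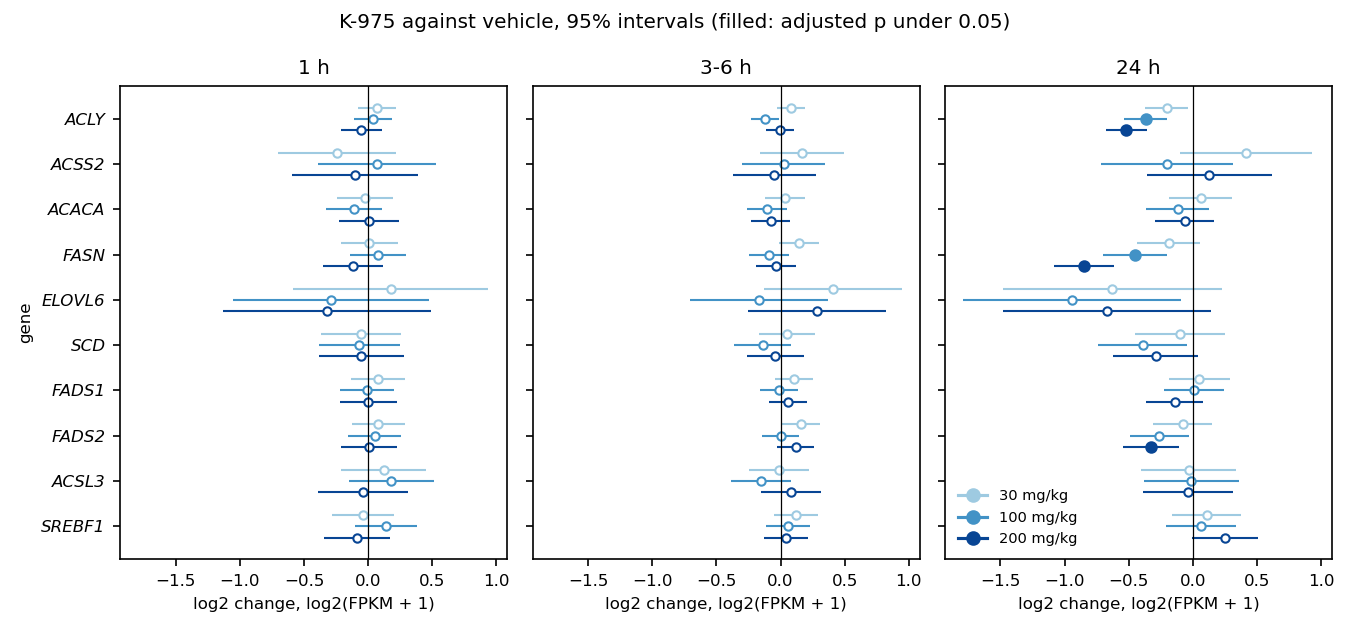
Log2 change against vehicle on log2(FPKM + 1) (x axis) of the 10 members (y axis) at 30, 100 and 200 mg/kg in the 3 studies, with 95% intervals. Filled points have an adjusted p under 0.05. They are FASN and ACLY at 100 and 200 mg/kg and FADS2 at 200 mg/kg, all at 24 h.

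Vehicle and untreated tumors were compared to see what dosing itself did. No member was called in any study, and among all genes 0 of 13036 were called in each study as well. The log2 differences of the members lay between -0.10 and 0.30 at 24 h. Between the untreated tumors of different studies, ACACA differed. It was at 75.4, 61.2, 72.9, 52.4 and 61.2 FPKM at 3-6 h and at 41.0, 62.2, 47.7, 44.0 and 47.5 FPKM at 24 h, with 1 tumor of the 24 h group inside the range of the other. The log2 difference was -0.41 (SE 0.11, adjusted p = 0.0172), and ACACA was the only called member in a comparison in which 4.36% of all genes were called. Its adjusted p was 1 with all 94 libraries.

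The levels of several members also went together from tumor to tumor. After the mean of each group was subtracted, 24 of the 45 pairs of members correlated over the 91 tumors at an adjusted p under 0.05 (permutation within groups, 100000 resamples, two-sided), and 22 of these also did so by Spearman's rho. The correlation was above 0 in 39 pairs, with a median r of 0.28, whereas the median r of a member with the other 13026 genes lay between -0.01 and 0.02. A median near 0 can hold positive and negative values of r that cancel. The share of pairs of other genes that would pass the same test was not computed, so 24 of 45 has no such share beside it. The values of 1 tumor share its library and scaling.

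FASN went with members that changed with it and with members that did not. It correlated with ACACA (r = 0.42, adjusted permutation p = 0.0011), FADS1 (r = 0.36, 0.0149) and ACSL3 (r = 0.36, 0.00382), which were not called at any dose. The correlation of FASN with FADS2 was r = 0.72 and rho = 0.72, and that with ACLY was r = 0.69 and rho = 0.69, each with an adjusted permutation p of 6.43e-05. The p before adjustment was 1e-05, the smallest that these permutations can give. Without the 2 tumors farthest from the median of FASN they were 0.71 and 0.71. Within the studies at 1 h, 3-6 h and 24 h, r was 0.60, 0.81 and 0.62 for FADS2 and 0.33, 0.83 and 0.61 for ACLY. ACLY and FADS2 correlated as well (r = 0.62, rho = 0.64, adjusted permutation p = 6.43e-05).

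SREBF1 went with SCD, with r = 0.71 and rho = 0.70 (adjusted permutation p = 6.43e-05), and within the 3 studies r was 0.75, 0.75 and 0.64. Its correlation with FASN was r = 0.17 and rho = 0.19 (adjusted permutation p = 0.279), and that with ACLY was r = -0.03 and rho = -0.02 (adjusted permutation p = 0.834). FADS1 correlated with SCD (r = 0.57, rho = 0.53) and with FADS2 (r = 0.58, rho = 0.49), the gene with which it shares bases, each at an adjusted permutation p of 6.43e-05. FADS2 was in 8 of the called pairs, and ELOVL6, the lowest member, was in 0.

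Outside the members, genes whose residuals closely resembled the mean z-score of the 10 members over the 91 tumors were MFAP5 (r = 0.79), DHCR7 (r = 0.77), MVD (r = 0.73) and SCARA3 (r = 0.73). DHCR7 and MVD encode enzymes of cholesterol synthesis, MFAP5 encodes a protein of extracellular microfibrils, and SCARA3 encodes a scavenger receptor.

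Other genes of lipid metabolism were examined at 200 mg/kg at 24 h. Among all genes tested, 7.41% were called in this comparison. Apart from sterol synthesis, the counts of the lists lie near that share and are not read as results about the lists. Of 22 further genes of lipogenesis and glycerolipid synthesis tested, 1 was called lower and 0 higher, with a median log2 change of -0.02. The called gene was FADS3, a relative of FADS1 and FADS2 in the same cluster (log2 change -0.39, SE 0.10, adjusted p = 0.00748). Of 14 regulators of SREBP and ChREBP, 1 was called lower and 0 higher, with a median of 0.14. It was INSIG1, which holds the SREBP complex in the endoplasmic reticulum and is itself an SREBP target (log2 change -0.70, SE 0.19, adjusted p = 0.0133).

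Sterol synthesis and uptake, which draws on the same acetyl-CoA, had 12 of 22 genes lower and 1 higher, with a median of -0.42. The largest values were those of ACAT2 (-1.44), FDPS (-0.96), TM7SF2 (0.86) and HMGCS1 (-0.82), all past the threshold.

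Of 19 genes of fatty acid oxidation, 2 were called higher and 0 lower, with a median of 0.14. They were CPT1A, which admits long-chain fatty acids to mitochondria (log2 change 0.61, SE 0.12, adjusted p = 0.000375), and ACADVL, the very-long-chain acyl-CoA dehydrogenase (0.25, SE 0.08, adjusted p = 0.0476). Of 11 genes of fatty acid uptake and storage, 1 was called lower and 0 higher, with a median of 0.03, and it was the monoglyceride lipase MGLL (-0.69, SE 0.19, adjusted p = 0.0157). At 100 mg/kg at 24 h, 3 sterol genes, 1 gene of lipogenesis and 1 gene of uptake and storage were called lower, 1 oxidation gene was called higher, and 0 regulators were called. Among all genes, 1.12% were called at this dose. HILPDA, the storage gene, had a log2 change of -1.74 (adjusted p = 0.0492), and FADS3 had -0.37 (adjusted p = 0.0497). Both were named after their values were seen. At 1 h and 3-6 h, 0 genes of these lists were called at any dose, where at most 0.43% of all genes were called.

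The calls in these lists also depended on the fit. At 200 mg/kg at 24 h, 0 genes of the 5 lists passed in limma with all 94 libraries, where 0 of all genes did and 592 had an unadjusted p under 0.05. With depth as a covariate, 1 sterol gene was called lower and 0 genes of the other 4 lists were called, and 38 of all genes were called in place of 966. With only the groups compared, 10 sterol genes were called lower and 0 higher, and 275 of all genes were called.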

How the data were processed

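RNA-seq was performed on 94 xenograft tumors, after extraction of total RNA and target enrichment with capture probes. The authors deposited FPKM values, 1 column per library, and the submitters' processing notes name STAR and GRCh38 without versions or roles. The quantification tool, strand setting and treatment of mouse reads are not given in the sources used here. FPKM are scaled to each library, hold no counts, and give no sampling intervals.

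Groups came from the labels (19 groups), and replicates were numbered in accession order. Of 20555 entries, 20239 gene IDs were kept, and 32 blank cells were read as 0. Columns not used numbered 0. Table starts were counted from 1 after comparison with GENCODE 29. Tests used limma 3.58.1 (R 4.3.3, lmFit and eBayes with trend and robust) on log2(FPKM + 1), which understates changes of low genes, fitting a mean for every group. Genes entered if 4 or more of the 91 libraries reached an FPKM of 1, and a library was shallow below 10000 such genes. Adjusted p-values are Benjamini-Hochberg values over 13036 genes per comparison (threshold 0.05). At 3-6 h the mean of 2 cage groups was used. Correlations were computed in Python 3.11.15 with numpy 2.4.6, and scripts were tested on simulated data. Nothing states whether tumors of a group were independent beyond being separate animals.

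The members and gene lists were chosen with earlier results of these data known. Named genes were the 10 members, up to 4 called genes per list with the largest change at 200 mg/kg at 24 h, and the 5 genes most like the members, of which 1 is not reported here. Alternatives covered the libraries, pseudocount (0.1), filter, quantile normalization, groups fitted, depth, robust fitting, control, cage groups and single replicates. Depth here is the number of genes of a library at an FPKM of at least 1.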

Additional observations from a re-analysis of the deposited data

Results flagged for a closer look

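By the test of the difference itself in the main fit, the effect of 200 mg/kg in the 24 h study differed from that in each other study for 2 members. For FASN the difference was -0.73 on the log2 scale for 24 h minus 1 h and -0.82 for 24 h minus 3-6 h, and for ACLY it was -0.47 and -0.52. Of all genes, 0.583% were called for 24 h minus 1 h and 1.72% for 24 h minus 3-6 h. These calls did not hold in every fit, and time and study cannot be told apart.

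Of 150 groups of 4 to 10 tumors of a member, 11 held a tumor that lay apart from the rest of its group by Dixon's criterion, where chance flags about 1 in 20, or 7.5 groups. At 24 h these were FASN at 75.0 FPKM (200 mg/kg replicate 5), SCD at 1562 FPKM (vehicle replicate 4), SREBF1 at 292 FPKM (untreated replicate 2), ACACA at 61.8 FPKM (30 mg/kg replicate 5) and ACLY at 47.2 FPKM (30 mg/kg replicate 2). The tumor given 100 mg/kg as replicate 4 was lowest in its group for both ACSS2, at 9.32 FPKM, and FADS2, at 154 FPKM. At 1 h ACLY was at 48.6 FPKM in 200 mg/kg replicate 2. At 3-6 h ELOVL6 was at 16.8 FPKM and FADS2 at 304 FPKM in separate tumors given 200 mg/kg (cage group 5, replicates 4 and 3), and ACSL3 was at 86.0 FPKM in a tumor given 30 mg/kg (cage group 8, replicate 3).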

How the results depend on the processing

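With all 94 libraries, the number of members called fell to 0 at 100 and 200 mg/kg, in the dose trend and in both differences of effect at 24 h, and rose from 0 to 3 at 30 mg/kg, where the library of 702 genes enters and 22.7% of all genes were called. In that fit the slopes were 0.00392 for ACLY and 0.14 for FADS2. At 100 mg/kg at 24 h, 1 member was called with no filter on low values and with quantile normalization, and 0 with only the groups compared, with depth as a covariate and with untreated tumors as control. For 24 h minus 1 h, 0 members were called with only the groups compared and with depth as a covariate, and for 24 h minus 3-6 h 0 with untreated tumors as control.

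Leaving out 1 tumor at a time gave 0 to 2 members at 100 mg/kg, 2 to 3 at 200 mg/kg and 2 to 3 for the dose trend at 24 h, and 0 at 30 mg/kg, 1 h and 3-6 h. Among members not called, log2 changes at 200 mg/kg at 24 h turned for ACACA with untreated tumors as control (0.078), for ACSS2 (-0.14) and ACSL3 (0.12) with depth as a covariate, and without single tumors, which gave -0.000159 to 0.27 for ACSS2 and -0.15 to 0.064 for ACSL3.

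The number of correlated pairs was 28 with values centred on the study mean, 8 in the 1 h study alone, 14 at 3-6 h and 3 at 24 h, where fewer tumors enter. No paired analysis was possible because the labels give no replicate numbers. FPKM hold no counts, so that the depth of single values is unknown, and capture probes limit comparison between genes.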
